A study of Mus musculus with 24 samples.

Results

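The 10 genes described here encode proteins that build, crosslink or adhere to the elastic and collagenous matrix of the artery wall. They were chosen by name from the 55421 genes counted in each library, as the rows whose Ensembl identifier carries the symbol Eln, Fbn1, Fbln5, Lox, Loxl1, Loxl2, Loxl3, Postn, Tnc or Fn1 in GENCODE mouse release M21, and all 10 were found. All 10 also passed the filter on low counts. RNA was sequenced from uninjured carotid arteries of wild-type C57BL/6 mice that had all been ovariectomized. The 24 libraries, each from an animal with its own number, fell into 4 groups of 6: OVX, which received placebo, E2 (17β-estradiol), E4 (estetrol, a natural estrogen with D-ring hydroxyl groups that E2 lacks) and TAM (tamoxifen, a selective modulator of the estrogen receptors). The labels give an age of 9 weeks and the series' design text 3 weeks of treatment, while the study's methods describe a shorter treatment from subcutaneous pellets with cholesterol as the vehicle. Pellet loads of E2 and E4 were not equal but were set by the study to give similar estrogenic effects, so the comparison between them is not one of equal doses. The methods do not describe the TAM animals. The titles name 6 libraries as E4 although their treatment entry reads placebo, and the titles were followed.

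Elastic fibers give large arteries their recoil. Tropoelastin, the product of Eln, is deposited on a scaffold of fibrillin-1 microfibrils (Fbn1) with the help of fibulin-5 (Fbln5), and the copper-dependent amine oxidases of the lysyl oxidase family (Lox and Loxl1 to Loxl3) oxidize lysines so that elastin and collagen chains become covalently crosslinked. Periostin (Postn) and tenascin-C (Tnc) are matricellular proteins that accompany matrix remodeling, and fibronectin (Fn1) is the adhesive glycoprotein to which many matrix components and integrins bind. In arteries these genes are expressed mainly by smooth muscle cells and adventitial fibroblasts.

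Promoter sequences were available for 4 of the 10 genes, and those of Postn, Fbn1 and Fbln5 are shown, the 3 genes with a called difference in which no libraries of the 2 groups overlapped, each from 250 bases before to 50 bases after the RefSeq transcription start in GRCm38.p6, written 5′ to 3′ along the gene's strand. Capitals mark TATAAA or GGGCGG on either strand, the latter reading CCGCCC when it lies on the opposite strand.
Postn (chr3:54360857-54361156, plus strand): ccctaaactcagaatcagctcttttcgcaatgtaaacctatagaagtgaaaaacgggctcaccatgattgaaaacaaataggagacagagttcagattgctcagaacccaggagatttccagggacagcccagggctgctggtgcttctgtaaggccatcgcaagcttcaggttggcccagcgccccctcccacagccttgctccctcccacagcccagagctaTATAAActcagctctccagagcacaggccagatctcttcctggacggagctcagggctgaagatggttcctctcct
Fbn1 (chr2:125506389-125506688, minus strand): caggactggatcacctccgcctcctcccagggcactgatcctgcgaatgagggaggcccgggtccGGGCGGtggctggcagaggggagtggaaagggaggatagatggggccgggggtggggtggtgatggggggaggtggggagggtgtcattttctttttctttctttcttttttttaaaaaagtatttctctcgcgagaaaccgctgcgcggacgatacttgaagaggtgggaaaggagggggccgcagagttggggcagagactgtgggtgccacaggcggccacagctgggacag
Fbln5 (chr12:101819070-101819369, minus strand): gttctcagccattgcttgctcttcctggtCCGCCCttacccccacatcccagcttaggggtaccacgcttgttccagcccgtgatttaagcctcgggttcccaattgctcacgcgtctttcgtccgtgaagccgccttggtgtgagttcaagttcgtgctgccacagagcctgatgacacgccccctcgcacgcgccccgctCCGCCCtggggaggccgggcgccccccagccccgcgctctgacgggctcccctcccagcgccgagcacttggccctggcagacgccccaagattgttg

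The Postn window held a TATAAA at position -26 relative to the start, a motif found in 13.6% of the 32851 promoters of the same length, and no GGGCGG. The Fbn1 window held a GGGCGG at -185 and the Fbln5 window held this motif at -221 and -48, as compared with 35.7% of all promoters with at least 1 match. Fbln5 also held a CCAAT at -150 (37.4% of promoters) and a CAGAC at 31 (49.6%). On both strands, none of the 3 windows contained GGTCA (40.5% of promoters), TGANTCA (7.81%), a CArG box (1.63%) or a full estrogen response element (0.07%). GC content was 53.0% for Postn, 60.3% for Fbn1 and 65.7% for Fbln5. The RefSeq start used for Fbn1 lies 1555 bases from the GENCODE gene start, so another start of that gene is not covered. These matches describe letters in the windows and were not tested against the expression values.

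Library totals ranged from 24647246 to 64221401 counts, with a median of 45156106.5. Expression is given as CPM, the counts scaled to a common library size with the TMM factors of the 24 libraries. A gene was called when edgeR's quasi-likelihood test gave a Benjamini-Hochberg adjusted p-value under 0.05 over all tested genes. Nothing in the labels says that mice were handled in separate batches, but animal numbers fell in 2 series (up to 20 and above 20), with 4 and 2 libraries in OVX and 3 and 3 in each other group. The study's methods place the vehicle, E2 and E4 data in the same experiment. The E4 libraries carry sample identifiers apart from those of the other groups, a split that cannot be told apart from treatment. The artery samples differed in adjoining tissue. The summed level of 10 sympathetic ganglion genes was 39.9 CPM at the lowest and 6058 at the highest in OVX, and 227.1 to 7874 CPM in TAM, the lowest values belonging to OVX C5 and TAM C35. It was 2174 to 5978 CPM in E2 and 4812 to 9589 in E4. The artery's own smooth muscle genes (Myh11, Acta2, Tagln, Cnn1, Smtn, Myocd and Des) were present throughout, with summed levels of 2247 to 4722 CPM in OVX, 2629 to 3635 in E2, 2790 to 4660 in E4 and 2868 to 7997 in TAM. E4 C38 had the lowest total count and the highest summed level of 6 thyroid and parathyroid genes (2976 CPM). In RNA from whole tissue, fewer cells of a type and less RNA per cell cannot be told apart.

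Per length of transcript, Eln was the most abundant of the 10 transcripts, with a median of 126.8 RPKM over the 24 libraries (lowest 61.8, highest 265.0). Postn (52.3 RPKM), Fbln5 (51.1), Fn1 (33.4), Lox (28.8), Fbn1 (26.3) and Loxl1 (24.4) followed, then Loxl2 (9.87), Loxl3 (9.04) and Tnc (1.91). The ranges of neighbours in this order overlapped in every case except Loxl3 and Tnc, whose highest library reached 3.49 RPKM against a lowest of 6.75 for Loxl3. In the annotation, exons of all members except Fbln5, Loxl1 and Postn overlap those of another gene, with which reads could be shared.

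**Figure D1:**
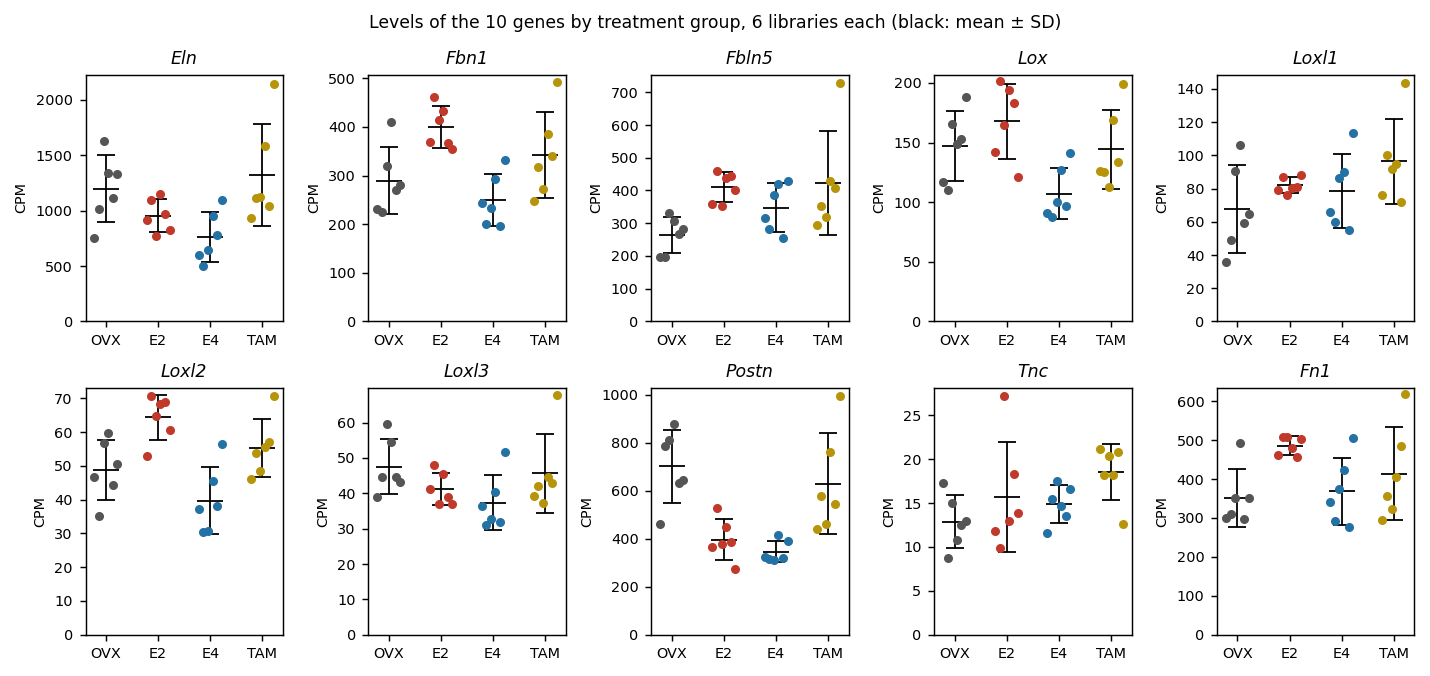
Each panel shows the CPM of a gene in every library (points) of the OVX, E2, E4 and TAM groups, with the group mean and SD (n = 6) in black; vertical axes start at 0 and differ between panels. Postn in the 6 E4 libraries lay between 311.6 and 413.8 CPM, below all 6 OVX libraries, and TAM C35 was the highest TAM library for every gene except Tnc.

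With E4, edgeR called 3 of the 10 genes lower than in OVX (Postn, Eln and Lox) and none higher. At an unadjusted p-value under 0.05 there were 5, of which Fbln5 was higher, and DESeq2 called it so (0.42, adjusted p = 0.0329) beside the same 3 lower genes. Among all 24669 genes tested, 12% were called lower and 9.65% higher in this comparison. With E2, edgeR called Postn lower and Fbln5 higher, and DESeq2 called Fbn1 and Fn1 higher as well, where 1.23% of all genes were called lower and 2.65% higher. With TAM, edgeR called none of the 10 genes, against 0.930% of the 25056 genes called lower and 1.30% called higher; 3 of the 10 had an unadjusted p-value under 0.05 and DESeq2 called 1, Fbln5. The median log2 fold change of the 10 genes was -0.25 with E4, 0.28 with E2 and 0.21 with TAM, while the median of all tested genes lay between -0.01 and 0.01 in all 6 comparisons made. The 3 comparisons with OVX share the same 6 control libraries. Most of the 10 genes also varied together within groups, so their medians do not rest on 10 independent values and were not tested.

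**Figure D2:**
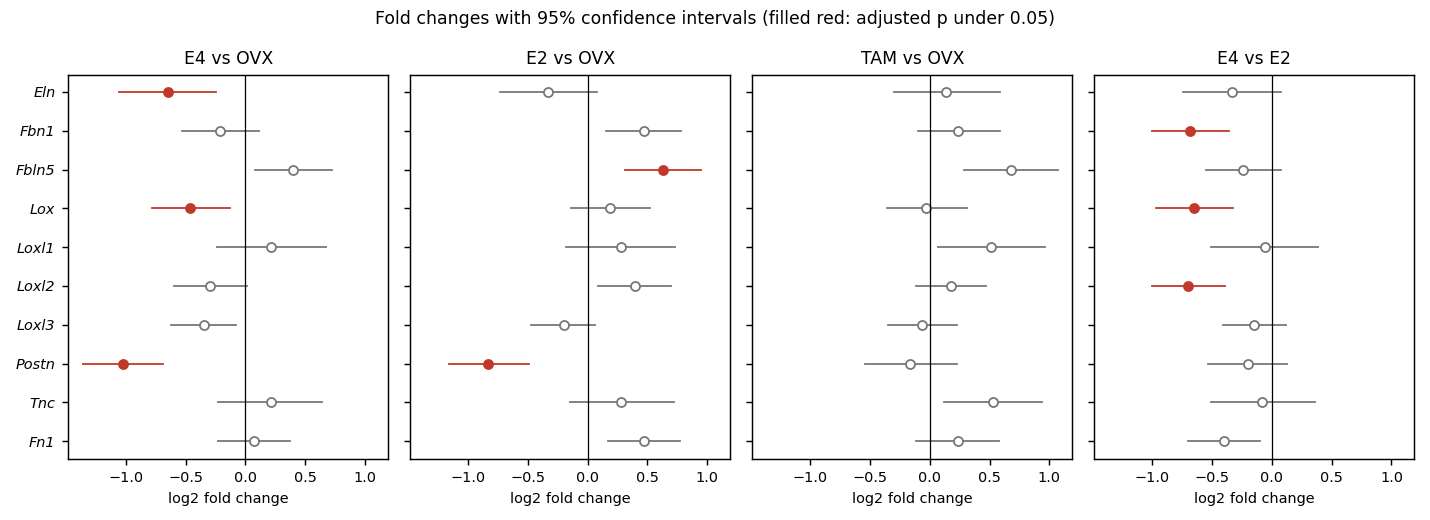
Points give the log2 fold change of each gene and lines its 95% confidence interval, in 4 comparisons; filled red points had an adjusted p-value under 0.05. Postn stood at -1.02 with E4 and -0.83 with E2 and at -0.16 with TAM, and all 10 genes lay below 0 in E4 vs E2.

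Postn (ENSMUSG00000027750, chromosome 3, 54361109 to 54391037, plus strand) fell with both estrogens and had the largest change of the 10 genes. Its level in OVX was 462.8 CPM in the lowest library, 716.0 in the median and 876.9 in the highest. In E4 the corresponding values were 311.6, 321.8 and 413.8 CPM, so that all 6 E4 libraries lay below every OVX library, as was the case for 4.07% of 25056 genes. The mean was 702.7 ± 151.9 CPM in OVX and 345.8 ± 44.2 in E4 (SD, n = 6 each), which is -1.02 on the log2 scale with a standard error of 0.16 (edgeR adjusted p = 0.00101). Postn was the only one of the 10 genes also past a 2-fold change, a combination met by 1.62% of all genes in the lower direction. This change remained called when each of the 18 libraries was left out in turn, with log2 fold changes from -1.12 to -0.95, hence on either side of the 2-fold line.

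With E2, Postn ranged from 274.3 to 527.4 CPM with a median of 383.2, and 5 of the 6 libraries were below all OVX libraries. Its mean was 396.6 ± 85.0 CPM (SD, n = 6) and its log2 fold change was -0.83, with a standard error of 0.16 (edgeR adjusted p = 0.00405). The E2 and E4 levels were not separated by the direct test without covariates, with a log2 difference of E4 over E2 of -0.20 and a 95% confidence interval of -0.53 to 0.13. With smooth muscle markers as a covariate it was -0.34 and called (edgeR adjusted p = 0.0319), in a fit that called 3514 of 24669 genes lower. It was 0.37 with fibroblast and 0.38 with macrophage markers, neither of them called. In TAM, Postn stood at 438.8 CPM in the lowest library, 562.8 in the median and 993.3 in the highest, overlapping OVX, and its log2 fold change from OVX was -0.16 (interval -0.54 to 0.23). It was -0.44 with smooth muscle markers as a covariate, where edgeR called it lower (adjusted p = 0.0136), as it did 2207 of 25056 genes, and -0.59 in animals numbered up to 20 and 0.27 in those above 20, neither of them called. The difference between TAM and the 2 estrogens was itself tested, and edgeR called Postn alone of the 10 genes in each comparison (DESeq2 called 1 and 2 genes higher), with median log2 differences over the 10 genes of 0.09 from E2 and 0.37 from E4. Postn was higher with TAM than with E2 by 0.67 on the log2 scale (standard error 0.19, edgeR adjusted p = 0.0332), in a comparison where 1.92% of genes were called higher and 4.48% lower. It was higher with TAM than with E4 by 0.87 (standard error 0.19, edgeR adjusted p = 0.0412). Only 0.172% of genes were called higher and 0.172% lower in this comparison, and all 6 TAM libraries lay above all E4 libraries for Postn, as for 0.495% of genes. These 2 calls depended on single libraries. With TAM C35 left out, the log2 differences were 0.50 from E2 and 0.68 from E4 and both calls were lost, as they were without E2 C6, E2 C27 or TAM C32. The call against E2 was also lost without E2 C9 or E2 C29, and that against E4 without OVX C3, C24 or C25, E2 C26, E4 C16, C19, C20, C38 or C39, or TAM C12 or C33. With smooth muscle markers as a covariate, the difference from E2 was 0.24 (edgeR adjusted p = 0.132) and that from E4 was 0.59 (edgeR adjusted p = 0.00738). With fibroblast markers they were 1.13 (edgeR adjusted p = 1.05e-05) and 0.62 (edgeR adjusted p = 0.0089). With macrophage markers they were 1.28 (edgeR adjusted p = 0.0243) and 0.81 (edgeR adjusted p = 0.0222). In animals numbered up to 20 the differences were 0.21 from E2 and 0.63 from E4, and in those numbered above 20 they were 1.07 and 1.04, none of them called.

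Of 7 fibroblast markers, 2 were called lower with E4 and 1 was called higher with E2. The summed level of these markers (Pdgfra, Dpt, Pi16, Cd34, Ly6a, Clec3b and Gsn) ran from 3711 to 7342 CPM in OVX, 6220 to 7926 in E2, 3493 to 6077 in E4 and 4160 to 6848 in TAM. With their mean as a covariate, Postn had log2 fold changes of -0.72 with E4 (edgeR adjusted p = 0.0037) and -1.09 with E2 (edgeR adjusted p = 1.88e-05). Cd34 and Ly6a are also expressed by endothelial cells. With the 7 smooth muscle markers as the covariate the values were -1.03 and -0.68. Of these markers, 2 were called lower and 1 higher with E4 and none passed with E2. The call with E4 was lost with the B cell markers as a covariate (-0.74, edgeR adjusted p = 0.238), of which 7 of 8 were lower with E4. That fit called 10 lower and 33 higher of all 24669 genes, against 2967 and 2381 without the covariate. Within the animals numbered up to 20, the log2 fold change was -1.21 with E4 and -0.80 with E2. Within those numbered above 20 it was -0.77 and -0.80, and of these 4 values only the first was called, in fits of 10 and 8 libraries.

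Of the elastic fiber genes proper, Eln (ENSMUSG00000029675, chromosome 5, 134702593 to 134747323, minus strand) encodes tropoelastin, the soluble precursor of elastin. Its level was 755.0 CPM in the lowest OVX library, 1222 in the median and 1631 in the highest. In E4 it was 500.1, 712.4 and 1093 CPM, with 3 of 6 libraries below every OVX library. The log2 fold change was -0.65, with a standard error of 0.19 (edgeR adjusted p = 0.0256). E2 libraries ranged from 775.2 to 1146 CPM, with a log2 fold change of -0.33 that did not pass the test (edgeR adjusted p = 0.46) but was -0.60 and called with fibroblast markers as a covariate (edgeR adjusted p = 0.0423) and -0.76 with macrophage markers (edgeR adjusted p = 0.116). In the fit without covariates, E4 and E2 did not differ detectably for Eln (-0.33, interval -0.74 to 0.08). With smooth muscle markers as a covariate the difference was -0.55 and called (edgeR adjusted p = 0.00827), in a fit that called 3514 of 24669 genes lower. It was 0.24 with fibroblast and 0.20 with macrophage markers, neither of them called. In TAM the median was 1117 CPM, TAM C35 reached 2146, and the log2 fold change from OVX was 0.14 (edgeR adjusted p = 0.745). The fall with E4 was not called without OVX C4, E4 C16, E4 C19 or E4 C20, nor with the fibroblast markers as a covariate, where the log2 fold change was -0.35 (edgeR adjusted p = 0.209). It was also not called by edgeR with ganglion (-0.57, adjusted p = 0.0668), B cell (-0.68, adjusted p = 0.422) or macrophage markers (-0.56, adjusted p = 0.0522) as a covariate, nor with only the 2 groups in the fit (-0.64, adjusted p = 0.0548). Within the number series it was -1.02 and -0.38, neither of them called. Exons of Eln overlap those of Gm30003, an antisense gene, and the strand setting of the counting is not given.

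Fbln5 (ENSMUSG00000021186, chromosome 12, 101746565 to 101819055, minus strand), which binds tropoelastin and tethers it to microfibrils and cells, was called higher with E2 in the edgeR fit without covariates. It ranged from 196.1 to 331.5 CPM in OVX with a median of 275.6, and from 354.0 to 460.7 CPM in E2 with a median of 420.5. The 6 E2 libraries were above all OVX libraries, as for 1.99% of genes, and the log2 fold change was 0.63 with a standard error of 0.15 (edgeR adjusted p = 0.0219). E4 and TAM libraries stood at medians of 351.0 and 380.4 CPM, with log2 fold changes of 0.40 (edgeR adjusted p = 0.0667) and 0.68 (edgeR adjusted p = 0.0554). Without covariates, no difference was detectable between E4 and E2 (-0.24, interval -0.55 to 0.08) or between TAM and E2 (0.04, interval -0.35 to 0.43). With smooth muscle markers as a covariate, E4 was called lower than E2 (-0.40, edgeR adjusted p = 0.0121), as were 3514 of 24669 genes. That difference was 0.21 with fibroblast and 0.29 with macrophage markers, neither of them called. Against OVX, with markers as a covariate, edgeR called the value with E4 in the fibroblast (0.64, adjusted p = 0.0114), smooth muscle (0.38, adjusted p = 0.0111) and macrophage fits (0.50, adjusted p = 0.0242). It called that with TAM in the fibroblast (0.79, adjusted p = 0.00155), ganglion (0.73, adjusted p = 0.0138), macrophage (0.75, adjusted p = 0.0242) and smooth muscle fits (0.36, adjusted p = 0.0162), the last with a value lower by over 1.5 times. The value with TAM was also called with RLE size factors (0.69, edgeR adjusted p = 0.049) and with at least 10 counts in every library (0.67, edgeR adjusted p = 0.0443). The rise with E2 was not called without OVX C3 or E2 C27, nor with fibroblast markers (0.43, edgeR adjusted p = 0.0613), macrophage markers (0.20, edgeR adjusted p = 0.575) or B cell markers (0.64, edgeR adjusted p = 0.0649) as a covariate, nor with all 24 libraries in the fit (0.63, edgeR adjusted p = 0.0588). Within the number series it was 0.60 and 0.62, neither of them called. The summed level of 6 macrophage markers was 736.9 to 1167 CPM in E2 and 456.9 to 825.4 in OVX, and 5 of the 6 were called higher. The part of these cells in the rise of Fbln5 was not tested.

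Fbn1 (ENSMUSG00000027204, chromosome 2, 125300594 to 125507993, minus strand) encodes fibrillin-1, the backbone of the microfibrils. The edgeR fit without covariates called it between the 2 estrogens and not against OVX. The E2 libraries ranged from 355.1 to 462.6 CPM with a median of 391.4, and the E4 libraries from 196.6 to 332.1 with a median of 238.6. OVX overlapped both groups, at 225.1 to 410.3 CPM, and its median of 274.9 lay between theirs. Against OVX the log2 fold change was 0.47 with E2 (edgeR adjusted p = 0.104) and -0.21 with E4 (edgeR adjusted p = 0.317). The value with E2 was called by DESeq2 (0.47, adjusted p = 0.0459) and by edgeR with smooth muscle (0.61, adjusted p = 0.00111) or ganglion markers (0.58, adjusted p = 0.00378) as a covariate. It was 0.20 with fibroblast (edgeR adjusted p = 0.158) and -0.20 with macrophage markers (edgeR adjusted p = 0.389). The TAM libraries spanned 247.3 to 493.0 CPM, with a log2 fold change from OVX of 0.24 (edgeR adjusted p = 0.416) that was 0.40 and called with fibroblast markers as a covariate (edgeR adjusted p = 0.00689).

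Lox (ENSMUSG00000024529, chromosome 18, 52516067 to 52529867, minus strand), the founding member of its enzyme family, was the lysyl oxidase called against OVX in the edgeR fit without covariates. It ranged from 109.9 to 188.1 CPM in OVX with a median of 151.1, and from 87.6 to 141.0 in E4 with a median of 98.5. In E4, 4 of 6 libraries lay below every OVX library, and the log2 fold change was -0.46 with a standard error of 0.16 (edgeR adjusted p = 0.0442). This call was lost when any of 10 libraries was left out (OVX C4, C5, C24 or C25, E2 C9 or C27, and E4 C16, C19, C20 or C38), with log2 fold changes from -0.55 to -0.37 over all libraries left out. With the fibroblast markers as a covariate it was -0.27 (edgeR adjusted p = 0.285), and within the number series -0.55 and -0.48, neither of them called. The edgeR call was also lost with ganglion (-0.42, adjusted p = 0.0984), B cell (-0.45, adjusted p = 0.501) or macrophage markers (-0.38, adjusted p = 0.0903), without a filter on low counts (-0.45, adjusted p = 0.0685) and with only the 2 groups in the fit (-0.45, adjusted p = 0.0587). E2 libraries ranged from 121.3 to 201.3 CPM and TAM libraries from 112.9 to 199.5, with log2 fold changes from OVX of 0.19 and -0.03. Loxl3 (ENSMUSG00000000693, chromosome 6, 83034173 to 83052562, plus strand), whose exons overlap those of the protein-coding gene Htra2, had a log2 fold change of -0.35 with E4 (edgeR adjusted p = 0.0552) and medians of 44.6 CPM in OVX and 34.5 in E4, with 4 of 6 E4 libraries below every OVX library. It was called lower with at least 10 counts in every library (-0.36, edgeR adjusted p = 0.0437) and with smooth muscle markers as a covariate (-0.37, edgeR adjusted p = 0.00413). Its E2 libraries ranged from 37.0 to 48.0 CPM and its TAM libraries from 37.2 to 67.9, with log2 fold changes from OVX of -0.20 and -0.06. With E2 it was called lower with fibroblast (-0.44, edgeR adjusted p = 0.00183) or macrophage markers (-0.68, edgeR adjusted p = 0.0284) as a covariate, and with TAM with smooth muscle markers (-0.28, edgeR adjusted p = 0.0201).

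Loxl1 (ENSMUSG00000032334, chromosome 9, 58287738 to 58313186, minus strand), whose product is targeted to elastin through fibulin-5, ranged from 35.8 to 106.4 CPM in OVX. Its E2 libraries kept within 76.0 to 88.4 CPM, whereas E4 libraries spread from 55.1 to 113.4 and TAM libraries from 72.2 to 143.3. Its log2 fold changes from OVX were 0.21 with E4, 0.28 with E2 and 0.51 with TAM, and none was called in the edgeR fit without covariates. With markers as a covariate, edgeR called it higher with E4 in the fibroblast fit (0.68, adjusted p = 0.0147) and with E2 in the smooth muscle fit (0.58, adjusted p = 0.00358). With TAM it was called higher in the fibroblast (0.75, edgeR adjusted p = 0.00408), ganglion (0.65, edgeR adjusted p = 0.0301) and macrophage fits (0.67, edgeR adjusted p = 0.0484). Loxl2 (ENSMUSG00000034205, chromosome 14, 69609068 to 69695834, plus strand) acts on collagens including those of basement membranes. It ranged from 35.1 to 59.6 CPM in OVX (median 48.6), 52.9 to 70.8 in E2 (66.6), 30.5 to 56.5 in E4 (37.7) and 46.0 to 70.7 in TAM (54.7). The E2 and E4 libraries thus overlapped in 1 E4 library, C39. Against OVX its log2 fold change was 0.40 with E2 (edgeR adjusted p = 0.158) and -0.30 with E4 (edgeR adjusted p = 0.146), and 0.18 with TAM (edgeR adjusted p = 0.497). The value with E2 was called with smooth muscle (0.49, edgeR adjusted p = 0.0239) or ganglion markers (0.46, edgeR adjusted p = 0.0486) as a covariate.

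Tnc (ENSMUSG00000028364, chromosome 4, 63959785 to 64047015, minus strand) was the least abundant of the 10 genes, at 8.71 to 17.3 CPM in OVX, 9.92 to 27.2 in E2, 11.6 to 17.5 in E4 and 12.6 to 21.2 in TAM. Its log2 fold changes from OVX were 0.21 with E4, 0.28 with E2 and 0.53 with TAM (edgeR adjusted p = 0.132 for the last), and 5 of 6 TAM libraries were above every OVX library. The value with TAM was called with smooth muscle markers as a covariate (0.63, edgeR adjusted p = 0.0349). Fn1 (ENSMUSG00000026193, chromosome 1, 71585520 to 71653200, minus strand) ranged from 298.0 to 493.1 CPM in OVX, with OVX C5 the highest, and from 457.7 to 508.0 CPM in E2. The log2 fold change with E2 was 0.47 (edgeR adjusted p = 0.0817). It was 0.59 and called with ganglion (edgeR adjusted p = 0.00225) or smooth muscle markers (edgeR adjusted p = 0.00236) as a covariate, and -0.11 with macrophage markers (edgeR adjusted p = 0.661). With OVX C5 left out, it was 0.59 (edgeR adjusted p = 0.0081) and that of Fbn1 was also 0.59 (edgeR adjusted p = 0.0124), so that 3 of the 10 genes instead of 1 were called higher with E2. Over all genes, those called higher went from 653 of 24669 to 901 of 24840. In E4, Fn1 ranged from 275.6 to 505.7 CPM, with a log2 fold change of 0.07 (interval -0.23 to 0.37). In TAM it ranged from 294.9 to 617.2 CPM with a median of 381.6, and its log2 fold change from OVX was 0.24 (edgeR adjusted p = 0.436), or 0.36 and called with fibroblast markers as a covariate (edgeR adjusted p = 0.0351).

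In the direct comparison of the estrogens, Fbn1, Lox and Loxl2 were lower with E4 than with E2 and no gene was higher. Among all tested genes, 7.95% were called lower and 2.95% higher, and the median log2 difference of the 10 genes was -0.28. For Fbn1 the 6 E4 libraries lay below all E2 libraries, as for 4.13% of genes, and the log2 difference was -0.68 with a standard error of 0.15 (edgeR adjusted p = 0.0108). Loxl2 differed by -0.70, with a standard error of 0.15 (edgeR adjusted p = 0.00737), and 5 of 6 E4 libraries were below every E2 library. Lox differed by -0.65, with a standard error of 0.16 (edgeR adjusted p = 0.0162), and 4 of 6 E4 libraries were below every E2 library. The remaining 7 genes had differences from -0.40 (Fn1, edgeR adjusted p = 0.0758) to -0.06 (Loxl1, interval -0.51 to 0.39). That of Fn1 was called without OVX C5 (-0.40, edgeR adjusted p = 0.0281) and with only the 2 groups in the fit (-0.40, edgeR adjusted p = 0.0409). All 3 calls held when each of the 18 libraries was left out in turn. With the B cell markers as a covariate, edgeR no longer called Fbn1 (-0.67, adjusted p = 0.0608) or Lox (-0.64, adjusted p = 0.0837) and still called Loxl2 (-0.76, adjusted p = 0.0257). In animals numbered up to 20, the differences were -0.88 for Fbn1, -0.87 for Lox and -0.94 for Loxl2, the latter 2 called. In animals numbered above 20 they were -0.47, -0.43 and -0.48, none of them called.

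Like Fbn1, Lox and Loxl2, markers of several cell types were lower with E4 than with E2. Between E4 and E2, 5 of 7 fibroblast markers and 6 of 6 macrophage markers were called lower with E4, with median log2 differences of -0.77 and -1.02, and none of either list was called higher. The same held for 6 of 6 proliferation markers (median -1.39, summed level 6.06 to 11.4 CPM in E4 and up to 77.7 in E2, where the median was 18.2) and 5 of 6 T cell markers (median -3.23, 2.60 to 7.06 CPM in E4 and 3.97 to 304.2 in E2, with an E2 median of 7.22). The macrophage sum was 319.7 to 583.4 CPM in E4 and 736.9 to 1167 in E2. With the fibroblast markers as a covariate, none of the 10 genes was called, with differences of -0.09 for Fbn1, -0.27 for Lox and -0.30 for Loxl2. This fit called only 9 lower and 10 higher of all 24669 genes, against 1962 and 728 without the covariate. With the macrophage markers as a covariate, edgeR called 0 of all 24669 genes in either direction, so that the absence of calls among the 10 says nothing of them in particular, and Fbn1 stood at 0.15, Lox at -0.21 and Loxl2 at -0.18. With the 7 smooth muscle markers as a covariate, 9 of the 10 genes were called lower, with -0.84 for Fbn1, -0.78 for Lox and -0.82 for Loxl2, in a fit that called 3514 lower and 1961 higher over all 24669 genes. Of the smooth muscle markers, 1 of 7 was called higher with E4 than with E2 and none lower. The part of these cell types in the differences was not tested.

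**Figure D3:**
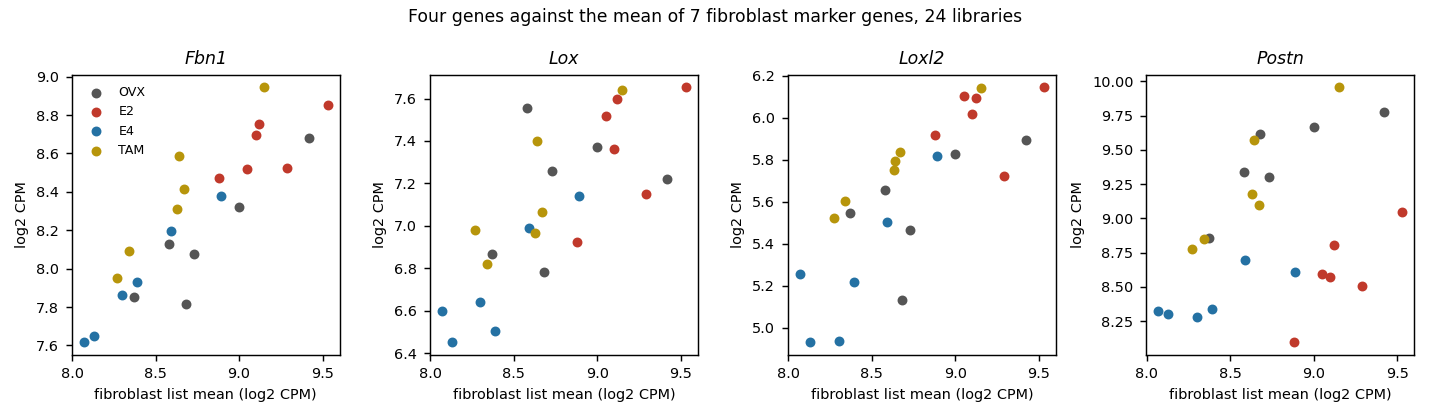
Log2 CPM of Fbn1, Lox, Loxl2 and Postn in each of the 24 libraries (vertical axis) against the mean log2 CPM of the 7 fibroblast markers (horizontal axis), coloured by group. The fibroblast mean ran from 8.88 to 9.53 in E2 and from 8.07 to 8.89 in E4; Fbn1 followed it across groups, whereas for Postn the E2 libraries lay low at a high fibroblast mean.

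Within groups, 9 of the 10 genes varied with both cell type lists from library to library. After subtraction of the group means, Pearson's r with the fibroblast mean over 24 libraries was between 0.63 (Lox, rho 0.63) and 0.92 (Fbn1, rho 0.90), and that with the smooth muscle mean was between 0.66 (Loxl2, rho 0.72) and 0.90 (Fbln5, rho 0.88). The permutation test within groups gave adjusted p-values of 0.00284 for Lox and 2.86e-05 for Fbn1 with the fibroblast list, and 18 of the 20 relations examined passed. Spearman's rho gave adjusted permutation p-values of 0.00338 and 6.67e-05 for the same pair. Tnc was the exception, with r of -0.38 (rho -0.34) and -0.36 (rho -0.18) for the fibroblast and smooth muscle lists, and permutation adjusted p-values of 0.0651 and 0.0608. Without the 2 libraries farthest from the median, r for the 9 genes was 0.62 to 0.90 with the fibroblast and 0.64 to 0.83 with the smooth muscle list. It was 0.67 to 0.95 and 0.52 to 0.93 within the number series. The marker lists themselves correlated at 0.85, so these values do not assign the genes to either cell type, and the libraries also share their content of ganglion and other adjoining tissue.

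Other genes of the matrix were grouped into 6 lists with 92 genes in all, every one of which was tested. With E4, 17 of the 92 genes fell and 12 rose, beside 12% and 9.65% of all genes. With E2, 6 fell and 11 rose, beside 1.23% and 2.65%. With TAM edgeR called 7 higher and none lower, beside 1.30% and 0.930%. Between E4 and E2, 21 genes were lower with E4 and 5 higher, beside 7.95% and 2.95%. Between TAM and E2, 9 were lower and 14 higher with TAM, beside 4.48% and 1.92%, and between TAM and E4 1 was lower and 2 were higher, beside 0.172% in each direction. The counts of each list that follows are to be read against these shares of all genes, and nothing is called particular to a list. Genes are named by the size of their change in single comparisons, so a gene named with a given treatment can have changed with others too.

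**Figure D4:**
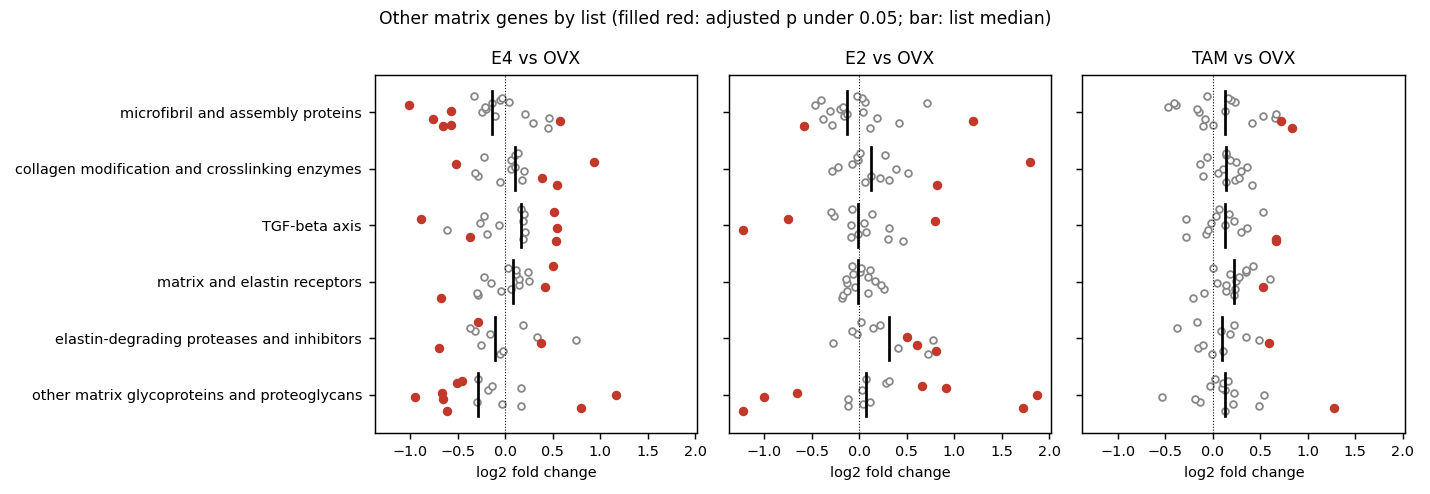
Each point is a gene of 1 of the 6 lists, placed by its log2 fold change from OVX with E4, E2 or TAM; filled red points had an adjusted p-value under 0.05 and black bars mark list medians. Called genes lay on both sides of 0 with E4 (17 lower, 12 higher) and E2 (6 lower, 11 higher), and above 0 with TAM (7 higher).

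Of 19 microfibril and assembly proteins, 5 fell and 1 rose with E4 (list median -0.14). They included Adamts10, a secreted metalloprotease of the ADAMTS family that binds fibrillin microfibrils (-1.01, edgeR adjusted p = 0.00219), and the microfibril component Mfap5 (-0.76, edgeR adjusted p = 0.00455). With E2, 1 gene of this list rose and 1 fell. Fbln2, a fibulin of elastic fibers and basement membranes, rose by 1.20 on the log2 scale with E2 (edgeR adjusted p = 7.99e-05) and by 0.72 with TAM (edgeR adjusted p = 0.017). Its log2 difference was -0.61 for E4 over E2 (edgeR adjusted p = 0.0177) and 0.14 for TAM over E4 (edgeR adjusted p = 0.83). Adamtsl4 fell by 0.58 with E2, and E4 was not separated from E2 for this gene (-0.07, edgeR adjusted p = 0.726). With TAM, Adamtsl2 rose as well (0.83).

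Among 15 collagen-modifying and crosslinking enzymes, 3 rose and 1 fell with E4, 2 rose with E2 and none passed with TAM. Plod2, the lysyl hydroxylase that prepares telopeptide lysines of collagen for crosslinking, rose from 59.7 CPM in OVX to 114.4 in E4 and 207.8 in E2, with log2 fold changes of 0.94 (edgeR adjusted p = 0.000536) and 1.80 (edgeR adjusted p = 1.73e-07). Tgm2, a transglutaminase that crosslinks matrix proteins independently of lysyl oxidases, rose by 0.55 with E4 and 0.82 with E2.

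In the TGF-beta axis of 15 genes, 2 fell and 3 rose with E4, 1 rose and 2 fell with E2 and 2 rose with TAM. Tgfbi, which encodes a secreted protein of the same fasciclin-domain family as periostin, fell by 0.89 with E4 (edgeR adjusted p = 0.000656). It also fell with E2 (-0.75, edgeR adjusted p = 0.0016). Tgfb1 rose with E4 (0.55). With E2, the receptor Tgfbr2 rose (0.80). With TAM, Tgfb2 rose (0.66) and so did Thbs1 (0.66), whose product activates latent TGF-beta. Of 16 matrix and elastin receptors, 1 fell and 2 rose with E4, none passed with E2 and 1 rose with TAM. The collagen receptors Ddr2 and Ddr1 had opposite changes with E4 (-0.68 and 0.50), and Sdc4, a syndecan that binds fibronectin, rose with TAM (0.53).

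Of 12 elastin-degrading proteases and inhibitors, 2 fell and 1 rose with E4, 3 rose with E2 and 1 rose with TAM. Ctsk, the elastolytic protease cathepsin K, fell by 0.70 with E4 (edgeR adjusted p = 0.00831). With E2, cathepsin S (Ctss), also a macrophage protease, rose (0.61), as did the inhibitor Timp1 (0.81). Timp4 rose with E4 (0.38) and TAM (0.59). Of 15 other matrix glycoproteins and proteoglycans, 6 fell and 2 rose with E4, 3 fell and 4 rose with E2 and 1 rose with TAM. Cilp, a matrix protein first known from cartilage, rose with E4 (1.17, edgeR adjusted p = 0.00164) and E2 (1.87, edgeR adjusted p = 7.84e-06), whereas Comp, which binds collagens, fell by 0.95 with E4. Fbln7 rose with E2 (1.73) and TAM (1.27).

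Over the 24 libraries, the genes whose log2 CPM was most like that of Postn, among 19530 compared, were Col4a3 (Pearson's r 0.94), C1qtnf2 (0.93) and Col4a4 (0.92). For Eln they were the antisense gene Gm30003 (0.95), which overlaps it and whose reads cannot be told apart from its own without strand, Ppic (0.91) and Ctnnb1 (0.91). For Lox they were Snx18 (0.92), Fndc3b (0.91) and Tpm4 (0.90). These values describe libraries that share group and tissue content, and carry no test.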

How the data were processed

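RNA sequencing libraries of carotid arteries (stranded mRNA kit, paired-end reads) were analysed in 4 groups of 6. The authors trimmed reads with Trim Galore, aligned them with Bowtie2 and counted them with featureCounts on mm10 (GRCm38), and deposited estimated counts per Ensembl gene, unnormalized, 1 table per library; bcl2fastq 2.17 is also in the submitters' processing notes. Versions of the other tools, the annotation and the strand setting are not given in the sources used here. Between 8.87% and 9.81% of genes per library carried decimals, and these values were rounded to whole numbers. Of 55421 identifiers, 55240 matched GENCODE M21, from which names and coordinates were taken. Promoters are from RefSeq (GRCm38.p6).

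The tests were quasi-likelihood tests in edgeR 4.0.16 (R 4.3.3), with TMM scaling, its default filter and Benjamini-Hochberg adjustment over all tested genes. OVX, E2 and E4 shared a fit of 18 libraries, and comparisons with TAM used all 24. Standard errors were derived from the F statistic. RPKM used exonic length. A gene was called at an adjusted p-value under 0.05. Alternatives were DESeq2 1.42.0, other scaling and filters, fewer or more libraries, the number series and marker lists as covariates; the macrophage covariate was added after seeing the data. Permutation tests drew 100000 resamples within groups. On counts simulated for E4 vs OVX over 24402 genes, 54 of 100 genes changed 1.5-fold and 80 of 100 changed 2-fold were called, with 4 false calls. All 10 members are named. Of each list, the 2 called genes with the largest fold change from OVX and a mean of at least 1 CPM are named per comparison, and the 3 genes most correlated with Eln, Lox and Postn; 1 gene that this rule takes is not reported here. The members and lists were chosen with earlier results of these data known. Nothing says that libraries of a group came from separate experiments, so p-values measure the spread between these animals. No 2 libraries of a group agreed within sampling noise.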

Additional observations from a re-analysis of the deposited data

Results flagged for a closer look

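Of 64 sets of 6 libraries examined for a library standing apart from the others of its group, 9 held one, where chance at 1 in 20 gives 3.2. The sets reuse the same libraries and correlated genes, so 3.2 is only a reference and an excess was not tested. Each value in parentheses divides the gap to the nearest library by the whole range of the 6. Of the 40 sets of member levels, 4 were among them.

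TAM C35 was high for Fbln5, at 727.6 CPM against 295.3 to 430.3 in the other TAM libraries (0.688), and for Loxl3, at 67.9 CPM against 37.2 to 44.7 (0.754). It was low for Tnc, at 12.6 CPM against 18.2 to 21.2 (0.643). The same library had a sympathetic ganglion mean of 3.86 log2 CPM, against 7.95 to 8.42 (0.896).

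OVX C5 was high for Fn1, at 493.1 CPM against 298.0 to 352.2 in the other OVX libraries (0.722). Its sympathetic ganglion mean was 1.08 log2 CPM, against 6.96 to 8.01 (0.848), and its macrophage mean was 6.25, against 5.50 to 5.66 (0.791).

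The smooth muscle mean of E2 C8 was 7.78 log2 CPM against 7.35 to 7.46 in the other E2 libraries (0.754). E4 C38 was sequenced to 24647246 counts, and the remaining E4 libraries to between 37505055 and 44224858 (0.657).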

How the results depend on the processing

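No paired analysis was possible because the groups share no replicate numbers. Over the fold changes of single members, alternatives other than leaving out 1 library gave 618 values, of which 480 kept direction and side of the threshold, 47 lost a call, 44 gained a call and 47 changed sign, 1 of these for a called gene (Fbn1 in E4 vs E2). Leaving out each library in turn gave 828 values, of which 769 kept both, 37 lost a call, 11 gained a call and 11 changed sign, 0 of these for a called gene. The fall of Postn with E4 held in 13 and that with E2 in 13 of 15 other alternatives, those of Eln and Lox with E4 in 8 and 6, the rise of Fbln5 with E2 in 9, and the differences of Fbn1, Lox and Loxl2 between E4 and E2 in 10, 11 and 12. In the simulated counts, power was limited at 6 libraries a group, as the share of 1.5-fold changes called shows. The least abundant member, Tnc, was at 8.71 CPM or more in every library.

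The numbers of members called moved as follows, where the cause was not tested unless fewer libraries entered the fit. The numbers over all genes moved with the settings as well, and no move is called particular to the members: B cell markers left 10 called lower of 24669 for E4 vs OVX (2967 without them), fibroblast markers left 9 for E4 vs E2 (1962), where macrophage markers and animals numbered above 20 left 0, and smooth muscle markers gave 3514. Within 1.5 times of the main number, 3 called lower became 2 or 4 in 4 alternatives for E4 vs OVX (2 without a filter and without OVX C5 and TAM C35, 4 with at least 10 counts in every library and with smooth muscle markers) and in 3 for E4 vs E2 (2 with animals numbered up to 20 only, 4 without OVX C5 and TAM C35 and with only the 2 groups compared). For E4 vs OVX, 3 called lower became 1 with animals numbered up to 20 only, 0 with those numbered above 20 only, 1 with ganglion, 0 with B cell, 1 with fibroblast and 1 with macrophage markers as a covariate, and 1 with only the 2 groups compared. The 0 called higher became 2 with fibroblast, 1 with smooth muscle and 1 with macrophage markers, and 1 with DESeq2. For E2 vs OVX, 1 called lower became 0 in either number series, 3 with fibroblast and 2 with macrophage markers. The 1 called higher became 0 in either number series, 3 without OVX C5 and TAM C35, 4 with ganglion, 0 with B cell, 0 with fibroblast, 5 with smooth muscle and 0 with macrophage markers, 0 with all 24 libraries in the fit and 3 with DESeq2. For TAM vs OVX, 0 called lower became 2 with smooth muscle markers, and 0 called higher became 1 with RLE size factors, 1 with at least 10 counts in every library, 2 with ganglion, 4 with fibroblast, 2 with smooth muscle and 2 with macrophage markers and 1 with DESeq2. For E4 vs E2, 3 called lower became 0 with animals numbered above 20 only, 1 with B cell, 0 with fibroblast, 9 with smooth muscle and 0 with macrophage markers. For TAM vs E2, 0 called lower became 5 with smooth muscle markers, and 1 called higher became 0 in either number series, 5 with fibroblast, 0 with smooth muscle and 2 with macrophage markers and 0 with only the 2 groups compared. For TAM vs E4, 1 called higher became 0 without a filter on low counts, in either number series, without OVX C5 and TAM C35, with B cell markers and with only the 2 groups compared, and 2 with DESeq2. With 1 library left out, the numbers ranged from 1 to 5 lower and 0 to 1 higher for E4 vs OVX, 0 to 3 higher for E2 vs OVX with 1 lower throughout, 0 to 1 higher for TAM vs OVX, 3 to 4 lower for E4 vs E2, and 0 to 1 higher for TAM vs E2 and for TAM vs E4.

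Changes of sign, in log2 fold changes, were as follows. For E4 vs OVX, Fbn1 was at 0.0018 with ganglion and 0.11 with fibroblast markers, Tnc at -0.0496 with B cell markers and Fn1 at -0.12 in animals numbered up to 20, and Fn1 ranged from -0.0413 to 0.19 with 1 library left out. For E2 vs OVX, macrophage markers gave -0.20 for Fbn1, -0.17 for Lox, -0.43 for Loxl1, -0.0178 for Loxl2 and -0.11 for Fn1, fibroblast markers gave -0.00409 for Lox and -0.0266 for Loxl1, and animals numbered above 20 gave -0.0515 for Lox. For TAM vs OVX, animals numbered up to 20 gave -0.18 for Eln, -0.0983 for Fbn1, -0.0159 for Loxl2 and -0.18 for Fn1, and those above 20 gave 0.25 for Loxl3 and 0.27 for Postn. Eln was at -0.00819 without OVX C5 and TAM C35 and -0.15 with smooth muscle markers, which also gave -0.0119 for Fn1. Lox was at 0.00795 with ganglion, 0.00514 with B cell, 0.0598 with fibroblast and 0.0267 with macrophage markers. Loxl3 was at 0.00601 with B cell, 0.0599 with fibroblast and 0.0162 with macrophage markers, and Postn at 0.0827 with B cell markers. With 1 library left out, Eln ranged from -0.0407 to 0.25, Lox from -0.13 to 0.0569 and Loxl3 from -0.20 to 0.0153. For E4 vs E2, fibroblast markers gave 0.24 for Eln, 0.21 for Fbln5, 0.71 for Loxl1, 0.35 for Loxl3, 0.37 for Postn and 0.0771 for Fn1. Macrophage markers gave 0.20 for Eln, 0.15 for Fbn1, 0.29 for Fbln5, 0.84 for Loxl1, 0.44 for Loxl3, 0.38 for Postn and 0.32 for Fn1. Animals numbered above 20 gave 0.0739 for Loxl1, 0.0499 for Loxl3, 0.0367 for Postn and 0.00621 for Tnc, and ganglion markers gave 0.0473 for Loxl1. With 1 library left out, Loxl1 ranged from -0.20 to 0.0216 and Tnc from -0.18 to 0.15.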
